A study of Mus musculus with 12 samples.

Results

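The 50 most abundant transcripts were followed across mouse embryonic stem cells (ESC) and neural progenitor cells (NPC) with different doses of CHD8. They are the 50 of 55419 transcripts chosen by the highest mean share of a library over the 12 libraries. A share is the estimated count of a transcript, in percent of all estimated counts of that library. The ESC were grown in 2i medium and the NPC were obtained by differentiation. Each cell type came as wild type (WT), CHD8+/- (HET) and CHD8-/- (KO), and each of the 6 groups had 2 libraries. Ribosomal RNA was removed from the total RNA, and stranded libraries were made with a SMARTer kit. The labels give neither the cell lines nor the number of clones per genotype, and do not say if replicates were grown separately. The p-values therefore reflect only how far these libraries spread, and that spread may be technical.

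CHD8 is a chromatin remodelling helicase. The 2i medium holds inhibitors that keep mouse ESC in a naive pluripotent state, and NPC are dividing cells that can give rise to neurons and glia. A sequencing library has a fixed number of reads, so a transcript that takes a larger share leaves fewer reads for all others. Read shares of the other transcripts then fall even where their own amounts stay the same, and scaling factors are meant to correct this.

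The transcripts carry UCSC-style identifiers, and 0 of them were matched to a gene in the reference tables used here. Members are therefore named by identifier, their functions are not described, and no sequence is printed. For the same reason the labels were not checked against Chd8 or against markers of ESC and NPC. The libraries held 9062447 to 14766212 estimated counts. The lowest estimated count of any member was 4407, for uc009avv.1 in the second WT ESC library, with an exact 95% Poisson interval of 4278 to 4539. Intervals here cover counting error only, and reads shared between similar transcripts add uncertainty that they do not hold.

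A single transcript, uc009vew.1 (2555 bases), held a mean of 17.3% of all counts, more than the other 49 members together, which held 15.0%. The 50 members held a mean of 32.3%, against 25.4% for the first 10, 36.6% for the first 100 and 50.8% for the first 500 transcripts. The transcripts uc009vew.1, uc009vev.1 (783 bases) and uc009vey.1 (1612 bases) ranked 1, 2 and 3 in each of the 12 libraries. From rank 4 on, the mean shares ran from 0.660% down to 0.117%. These levels chose the members and are given as a description, with no test. At the edge of the list, uc008kem.2 (rank 50) held 0.11658% and uc007hle.1 (rank 51) held 0.116156%, so the border falls between nearly equal transcripts.

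The members held a larger share of every ESC library than of any NPC library. In ESC they held 35.1% and 36.1% in WT, 36.2% and 41.3% in HET, and 36.0% and 46.4% in KO. In NPC they held 24.3% and 23.5% in WT, 31.4% and 24.99% in HET, and 24.8% and 27.7% in KO. The lowest ESC share, 35.1%, lay above the highest NPC share, 31.4%, and the widest Wilson 95% interval reached 0.0311 percentage points to either side. The second KO ESC library stood highest, and without it the highest ESC share was 41.3%. Fewer cells of a type and less RNA per cell cannot be told apart in these bulk libraries.

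Most of that difference lay in uc009vew.1. Its share was 18.5% and 21.2% in WT ESC, 20.3% and 25.8% in HET ESC, and 19.7% and 27.4% in KO ESC. In NPC it was 11.7% and 10.1% in WT, 16.6% and 12.6% in HET, and 10.6% and 13.3% in KO. The ESC and NPC libraries did not overlap, and replicates lay farthest apart in KO ESC. The second transcript, uc009vev.1, held 5.43% and 2.55% in WT ESC, 5.16% and 4.04% in HET ESC, and 4.62% and 7.29% in KO ESC. In NPC it held 1.70% and 3.18% in WT, 4.21% and 2.20% in HET, and 3.72% and 3.54% in KO, so the cell types overlapped for this transcript.

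**Figure D1:**
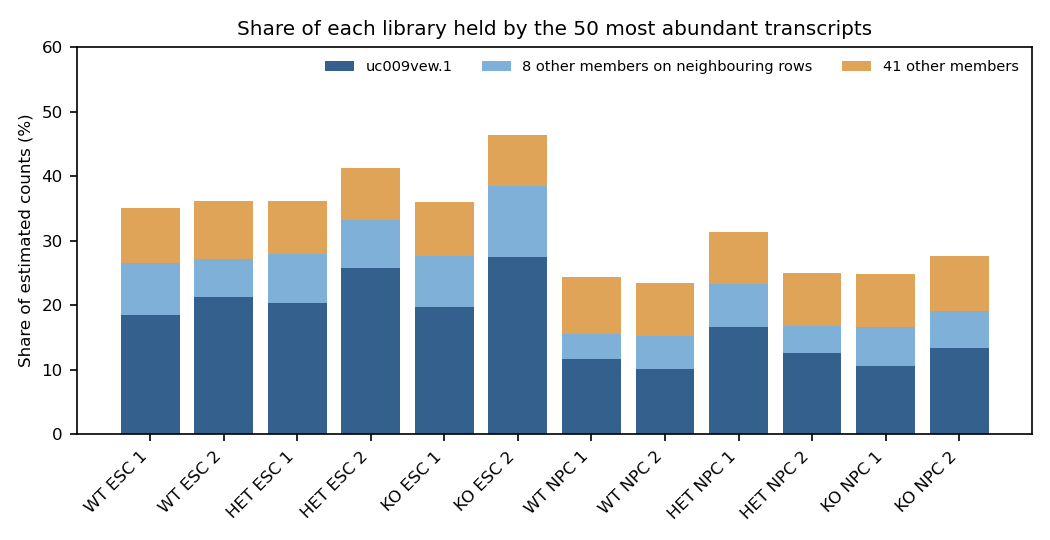
Stacked bars give the share of estimated counts (percent, vertical axis) held by uc009vew.1, by the 8 other members on neighbouring rows and by the remaining 41 members in each of the 12 libraries (horizontal axis). The top section has nearly the same height in all libraries, 7.95% to 8.87%, while the lower sections are taller in ESC.

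The difference in share lay in members on neighbouring rows of the deposited tables. A run of 11 consecutive rows held 9 members, among them the first 3, with uc012hdk.1, uc009vez.1, uc009vfa.1, uc009vfb.1, uc012hdm.1 and uc009vfc.1. This grouping was chosen after its values were seen, and the files do not state what orders the rows. The 9 transcripts held 26.5% to 38.4% of the ESC libraries and 15.2% to 23.2% of the NPC libraries. The other 41 members held 7.95% to 8.87% in all 12 libraries, with ESC and NPC overlapping. They included uc007ams.1, whose counts equalled those of uc009vfa.1 in the run. Taken as a share of the counts outside the 9 transcripts, the same 41 members held 11.5% to 12.9% in ESC and 9.82% to 10.6% in NPC. On that scale ESC stood above NPC again. Beside the run, uc007bvl.1 and uc007bvp.1 lay 6 rows apart and uc007ikd.1 and uc007ikf.1 lay 2 rows apart.

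The members were shorter than the transcripts tested, and close to all transcripts of the files. Their median length was 1893 bases, from 393 bases (uc008qml.1) to 8257 bases (uc007bvl.1), against 1906 bases for ranks 51 to 100, 3155 bases for the next 400 transcripts, down to rank 500, 2792 bases for all 30021 transcripts tested and 2141 bases for all 55419. Of the members, 12 (24.0%) were under 1000 bases, against 7.45% of the transcripts tested and 22.4% of all. Transcripts of at least 5000 bases made up 14.0% of the members, 14.3% of those tested and 9.64% of all. A long transcript yields more fragments per molecule, so counts rank transcripts differently from TPM, which divides by effective length. On the TPM scale 22 of the 50 members stayed among the first 50, their median rank was 57.5 and the lowest rank was 325. The first member uc009vew.1 remained first by mean TPM, while uc008gfj.2 (6982 bases), rank 5 by share, stood at rank 98. The first 50 by TPM had a median length of 666.5 bases, and 6 of them were under 300 bases. The members held 34.3% to 46.2% of TPM in ESC and 27.0% to 35.0% in NPC, so the cell types did not overlap for percent of counts but overlapped for percent of TPM.

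An estimated count is a whole number where no read of the transcript was divided with another. Counts were whole, within 0.001, in all 12 libraries for 18 of the 50 members (36.0%). The share was 42.0% for ranks 51 to 100, 28.5% from there to rank 500, 13.3% of the transcripts tested and 37.1% of all transcripts, those below the low-count filter included. In the run of rows 8 of the 9 members were whole, uc009vew.1, uc009vev.1 and uc009vey.1 among them. The exception, uc009vfa.1, had the same length (842 bases) and the same counts as uc007ams.1 in every library. These 2 transcripts, ranks 8 and 9, cannot be told apart by the counts and were tested as 1 feature, which leaves 49 member features.

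The list was similar in the 2 cell types. Ranked in ESC alone and in NPC alone, the first 50 shared 39 transcripts, 78.0% of each list. Of the members, 39 were in both lists, 5 only in the ESC list and 6 only in the NPC list. In single libraries 26 members were among the first 50 of every library and 46 among the first 100 of every library. The lowest rank of a member in any library was 213, for uc012hdk.1.

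With TMM scaling of the counts, more members were called lower than higher in NPC. On the TPM scale more were called higher than lower, though their median stayed below that of the other transcripts. Levels were compared as CPM, counts scaled to a common library size, after TMM scaling, which sets library sizes from the bulk of transcripts, with edgeR's quasi-likelihood test and Benjamini-Hochberg adjustment over all 30021 features. All 49 member features passed the filter on low counts. Averaged over the genotypes, 7 member features rose and 31 fell in NPC at adjusted p under 0.05, while of all tested transcripts 15.5% rose and 14.8% fell. With limma on log2(TPM + 1) the split of the calls turned to 14 higher and 8 lower, against 33.2% and 7.33% of all tested transcripts. With TMM the members' median log2 fold change was -0.51, against 0.02 for the other transcripts. With limma the members' median was -0.04, against 0.29 for the other transcripts. Of the 50 transcripts at ranks 51 to 100, 8 were higher and 28 lower, with a median of -0.43. From there to rank 500, 93 of 399 were higher and 135 lower.

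**Figure D2:**
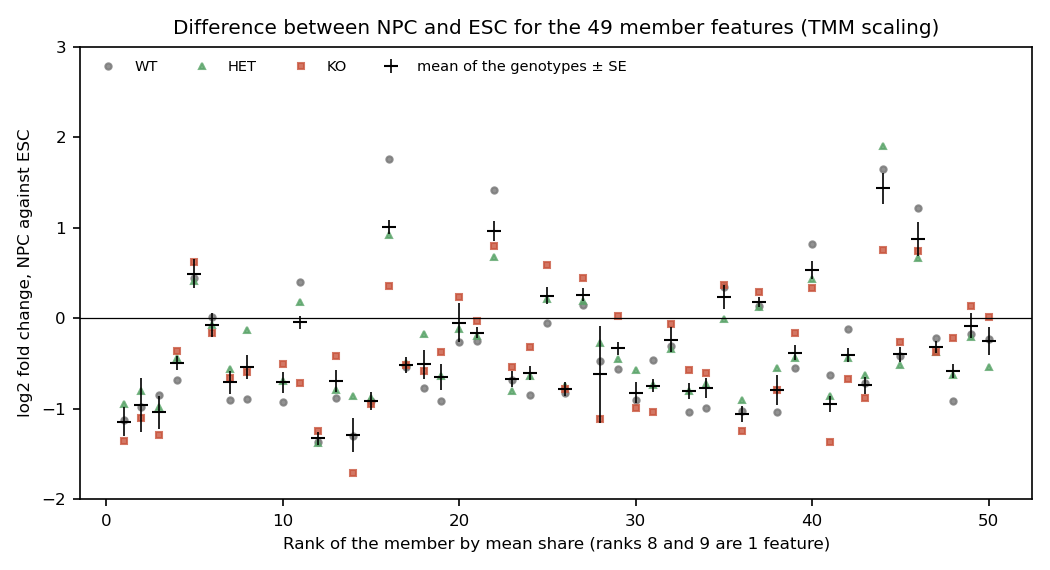
Each position on the horizontal axis is a member feature by its rank, and the vertical axis gives its log2 fold change of NPC against ESC in WT, HET and KO (symbols) and averaged over the genotypes with its standard error (black). Of the 49 features, 39 have an average below 0, and the averages run from -1.33 to 1.44.

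Of the first 10 members by share, 8 fell over the genotypes with TMM scaling, counting uc007ams.1 and uc009vfa.1 as separate members of 1 feature. The log2 fold change of uc009vew.1 was -1.15 ± 0.16 (SE; adjusted p = 0.00113, edgeR), with all 6 NPC libraries below all 6 ESC libraries. For uc009vey.1 it was -1.04 ± 0.19 (adjusted p = 0.00384, edgeR), for uc009vfc.1 -0.71 ± 0.12 (adjusted p = 0.00344) and for uc009gtk.1 -0.71 ± 0.11 (adjusted p = 0.0022). Smaller falls were found for uc009qun.1, at -0.50 ± 0.08 (adjusted p = 0.00187, edgeR), and for the feature of uc007ams.1 and uc009vfa.1, at -0.54 ± 0.13 (adjusted p = 0.0154). The fall of uc009vev.1, -0.96 ± 0.30, was just past the threshold (adjusted p = 0.0425, edgeR) and its call ended when any of 8 libraries was left out, namely either HET ESC, the second HET NPC, the second KO ESC, either KO NPC, the first WT ESC or the first WT NPC library (-1.02 to -0.73, adjusted p 0.0661 to 0.11, edgeR). With total counts as library sizes uc009vev.1, uc009qun.1 and uc007ams.1 were not called, at -0.65, -0.19 and -0.23. With limma on log2(TPM + 1), uc009vew.1 was the 1 feature of these that was still called lower, at -0.66 (adjusted p = 0.0392), and uc008cqz.1 was called higher, at 0.42 (adjusted p = 0.0266). The call of the uc007ams.1 feature ended without the first KO NPC or the second WT NPC library, at adjusted p = 0.0521 and 0.0517 (edgeR). The remaining members of the first 10 were not called, uc008gfj.2 at 0.49 ± 0.16 (adjusted p = 0.0511, edgeR) and uc008cqz.1 at -0.07 ± 0.13 (adjusted p = 0.767). Leaving out the second HET ESC, second HET NPC or second WT ESC library brought uc008gfj.2 past the threshold, at adjusted p = 0.045, 0.0244 and 0.036 (edgeR), as did total counts, at 0.79.

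The largest falls among members whose cell types did not overlap were those of uc007pbq.1 (2798 bases) and uc008ewj.2 (6209 bases). In ESC uc007pbq.1 had 2798 and 2633 CPM in WT, 4572 and 5119 in HET, and 4909 and 5051 in KO. In NPC it had 1054 and 1055 CPM in WT, 2060 and 1660 in HET, and 2102 and 2106 in KO. Every NPC library lay below every ESC library, at a log2 fold change of -1.33 ± 0.07 (SE; adjusted p = 1.06e-05, edgeR). The level of uc008ewj.2 was 4320 and 4143 CPM in WT ESC, 3195 and 3052 in HET ESC, and 4793 and 4193 in KO ESC. It was 2085 and 1336 CPM in WT NPC, 2300 and 1140 in HET NPC, and 1239 and 1509 in KO NPC. The groups did not overlap here either, and the log2 fold change was -1.29 ± 0.19 (adjusted p = 0.00135, edgeR).

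The largest rises were those of uc009avv.1 (6677 bases) and uc007msi.1 (1931 bases). The level of uc009avv.1 was 578 and 454.7 CPM in WT ESC, 596 and 671 in HET ESC, and 460 and 852 in KO ESC. In NPC it was 1576 and 1673 CPM in WT, 2325 and 2434 in HET, and 1313 and 895 in KO. The lowest NPC library lay just above the highest ESC library, both of them KO. The log2 fold change over the genotypes was 1.44 ± 0.17 (SE; adjusted p = 0.00048, edgeR). With its low ESC levels, uc009avv.1 owed its place among the members to its NPC levels, so its rise is tied to how it was chosen. Other members in only 1 of the ESC and NPC lists likewise owed their place to 1 cell type. For uc007msi.1 the ESC libraries had 1171 and 1313 CPM in WT, 1804 and 1810 in HET, and 1997 and 1943 in KO. Its NPC libraries had 4331 and 4064 CPM in WT, 3553 and 3293 in HET, and 2199 and 2852 in KO. The cell types did not overlap, and the gap was widest in WT and narrowest in KO. The log2 fold change of uc007msi.1 over the genotypes was 1.01 ± 0.08 (adjusted p = 5.29e-05, edgeR).

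Separation of all 6 ESC from all 6 NPC libraries was found for 5 members that were higher and 20 that were lower in NPC, 10.2% and 40.8% of the 49 features. Of all tested transcripts, 9.85% and 8.02% were separated in these directions. Many of the tested transcripts had far lower counts, and separation was not counted among transcripts of similar level. The 49 features include the 5 members only in the ESC list and the 6 only in the NPC list. Those owed their place to 1 cell type, so the counts of calls and of separation are partly tied to how members were chosen. The run of neighbouring rows gave 0 higher and 8 lower of 9 features, with a median log2 fold change of -0.82. Outside the run 7 were higher and 23 lower of 40, with a median of -0.39. For the tests and the spread, the feature of uc007ams.1 and uc009vfa.1 was counted in the run.

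Within single genotypes fewer members passed, and the split between rises and falls depended on the scale. With TMM, in WT 5 rose and 22 fell (10.2% and 44.9%), against 6.83% and 5.33% of all tested transcripts and 8% and 38% of ranks 51 to 100. In HET 2 rose and 13 fell (4.08% and 26.5%), against 6.3% and 5.16% of all tested and 6% and 28% of ranks 51 to 100. In KO 1 rose and 14 fell (2.04% and 28.6%), against 6.59% and 6.42% of all tested and 10% and 16% of ranks 51 to 100. Total counts gave 7 higher and 12 lower in WT (9.0% and 2.83% of all tested), 6 and 5 in HET (9.21% and 2.58%), and 6 and 7 in KO (10.4% and 3.17%). With limma on log2(TPM + 1) called rises outnumbered called falls, at 9 and 2 in WT (18.2% and 2.97% of all tested). The calls were 8 and 1 in HET (14.7% and 3.19%), and 10 and 4 in KO (15.1% and 3.81%). The members' medians with limma were -0.10 in WT, -0.05 in HET and 0.08 in KO, against 0.34, 0.28 and 0.26 for the other transcripts. The single rise in KO with TMM was uc009ajk.1, with 1635 and 1342 CPM in ESC and 2496 and 2687 in NPC (log2 fold change 0.80 ± 0.19, adjusted p = 0.029, edgeR). The falls to be named here were those of uc007ikd.1 in HET, at -0.91 ± 0.15 (adjusted p = 0.00822, edgeR), and of uc012hdm.1 in KO, at -1.37 ± 0.15 (adjusted p = 0.00134). These 3 comparisons have 2 libraries a side, and their counts moved with single libraries. The WT count of 27 became 14 or 10 without the first or second WT ESC library and 9 or 7 without the first or second WT NPC library. The HET count of 15 became 9 or 8 without a HET ESC library and 8 or 4 without a HET NPC library. The KO count of 15 became 9 without the second KO ESC library and 4 or 6 without the first or second KO NPC library. The call of uc009ajk.1 in KO ended without any 1 of the 4 KO libraries (adjusted p 0.0643 to 0.164, edgeR), and that of uc007ikd.1 in HET ended without the first HET NPC library (adjusted p = 0.0591).

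Replicate libraries of a group differed little for most members. The difference between replicates, as the mean over the 6 groups of the absolute difference in log2 CPM, had a median of 0.23 over the member features. It was 0.20 for ranks 51 to 100, 0.21 from there to rank 500 and 0.55 for all tested transcripts, many of which had far lower counts. Within the members it was larger in the run of rows (median 0.37) than outside it (median 0.19). By group the members' median was highest in KO ESC, at 0.32, and lowest in WT NPC, at 0.11.

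**Figure D3:**
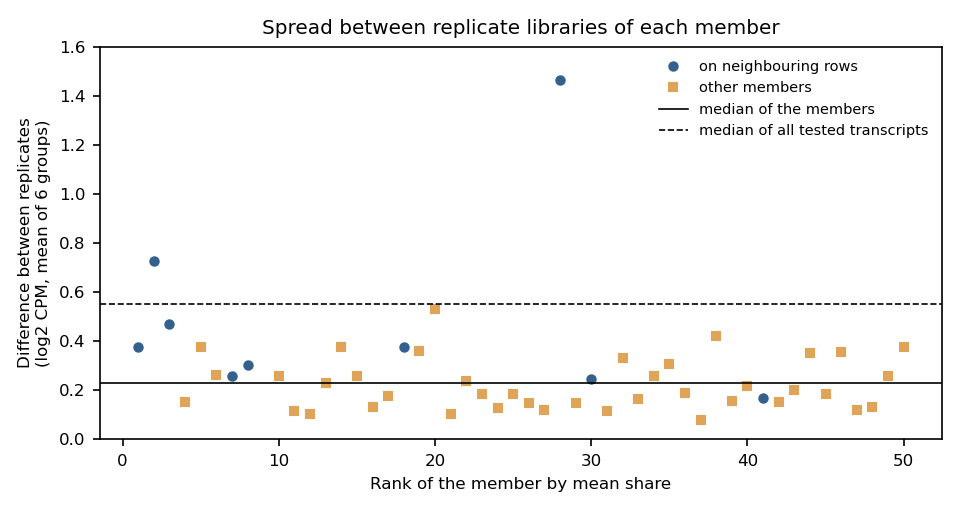
Each point is a member feature by rank (horizontal axis), with the mean over the 6 groups of the absolute difference in log2 CPM between the replicate libraries (vertical axis). The solid line is the median of the members (0.23) and the dashed line that of all tested transcripts (0.55), and 2 of the 9 points from neighbouring rows lie highest.

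The largest spread was that of uc012hdk.1, whose replicates differed by 1.47 on average. Its level was 1051 and 2920 CPM in WT ESC, 2274 and 1398 in HET ESC, and 3303 and 1069 in KO ESC. In NPC it was 2277 and 578 CPM in WT, 992 and 2045 in HET, and 1612 and 409 in KO. In every group 1 library was well above the other, and the groups overlapped throughout. Next came uc009vev.1, at 0.73. The smallest spread, 0.076, was that of uc007gqi.1, with 1338 and 1185 CPM in WT ESC and 1387 and 1384 in WT NPC, followed by uc007pbq.1 at 0.10. Only 3 of the 49 member features differed by more than 0.5 on average.

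Between genotypes few members were called with edgeR, and each call ended when 1 of several single libraries was left out. In ESC, KO against WT gave 2 higher and 1 lower of the 49 features (4.08% and 2.04%), while of all tested transcripts 0.716% were higher and 0.486% lower. At ranks 51 to 100, 0% were higher and 6% lower, and from there to rank 500, 3.76% and 1.25%. In NPC, KO against WT gave 1 higher member feature (2.04%), against 0.0766% of all tested and 2% of ranks 51 to 100. HET against WT gave 0 in ESC and 0 in NPC with edgeR, against 0.0333% and 0.00999% of all tested, with 5 and 6 features at unadjusted p under 0.05 (8.67% and 7.9% of all tested). DESeq2 called 5 and 2 (3.52% and 3.19% of all tested). KO against HET gave 0 in ESC and 0 in NPC with edgeR, against 0.00333% and 0.00666%, with 8 and 5 at unadjusted p under 0.05 (9.3% and 7.38% of all tested). DESeq2 called 4 and 3 (4.11% and 2.43% of all tested). These comparisons share their WT, HET or KO libraries within a cell type. The 3 calls in ESC became 0 without either KO ESC library or the second WT ESC library and 1 without any WT or KO NPC library, and a fit of either cell type alone called 0. DESeq2 called 12 members for KO against WT in ESC and 7 in NPC, and it also called more of all tested transcripts, 9.09% and 7.46%.

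The member called in both cell types was uc007pbq.1, which was higher in KO by 0.88 ± 0.12 in ESC (log2, SE; adjusted p = 0.0301, edgeR) and by 0.996 ± 0.123 in NPC (adjusted p = 0.0417, edgeR). Its CPM values, given above, placed all HET and KO libraries over both WT libraries in each cell type. The HET differences from WT, 0.84 in ESC and 0.82 in NPC, were of similar size and were not called (adjusted p = 0.0979 and 0.16, edgeR). The ESC call ended without either KO ESC library, either KO NPC library, either WT NPC library or the second WT ESC library (adjusted p 0.0625 to 0.11, edgeR). The NPC call ended without any 1 of the 12 libraries (adjusted p 0.0509 to 0.215, edgeR). In all these fits the difference stayed between 0.83 and 0.997.

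Transcripts on rows near uc007pbq.1 had differences of the same size. Over the 100 nearest tested transcripts with a mean of at least 2 CPM, the median log2 fold change of KO against WT was 0.86 in ESC and 0.96 in NPC, with 90 and 88 of the 100 above 0. The HET against WT medians of these neighbours were 0.84 and 0.77. KO against WT was called higher for 19 of the neighbours in ESC and for 8 in NPC, and called lower for 0 in either cell type. These neighbours were examined after the values of uc007pbq.1 were seen.

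The KO ESC libraries stood apart for uc009ozy.2 (2048 bases), the largest genotype difference of a member. It had 2319 and 1995 CPM in WT ESC, 2845 and 2247 in HET ESC, and 4971 and 5035 in KO ESC. In NPC it had 2784 and 2896 CPM in WT, 2916 and 2839 in HET, and 3073 and 3037 in KO. The KO ESC libraries lay far above the other 10, at a log2 fold change against WT ESC of 1.21 ± 0.13 (SE; adjusted p = 0.0168, edgeR), against 0.11 ± 0.13 in NPC (adjusted p = 0.847). The test of the difference between these effects gave -1.11 ± 0.18 and was not past the threshold (adjusted p = 0.157, edgeR). The call in ESC ended without either KO ESC library or the second WT ESC library, at adjusted p = 0.059, 0.0733 and 0.0588 (edgeR). The 100 row neighbours of uc009ozy.2 had medians of -0.05 in ESC and -0.14 in NPC for KO against WT.

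The member called lower was uc007uqz.2 (956 bases), whose counts were whole in all 12 libraries. It had 2932 and 2201 CPM in WT ESC, 1310 and 1204 in HET ESC, and 1200 and 1530 in KO ESC. In NPC it had 2400 and 2554 CPM in WT, 1430 and 1475 in HET, and 1985 and 2107 in KO. WT lay highest in both cell types, and KO lay between WT and HET in NPC. The KO against WT difference in ESC was -0.91 ± 0.16 (log2, SE; adjusted p = 0.0464, edgeR), and its call ended without any 1 of the 12 libraries (adjusted p 0.0576 to 0.186). In NPC it was -0.28 ± 0.16 (adjusted p = 0.549, edgeR). The row neighbours of uc007uqz.2 had medians of -0.54 in ESC and -0.52 in NPC, with 15 and 20 of 100 above 0.

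**Figure D4:**
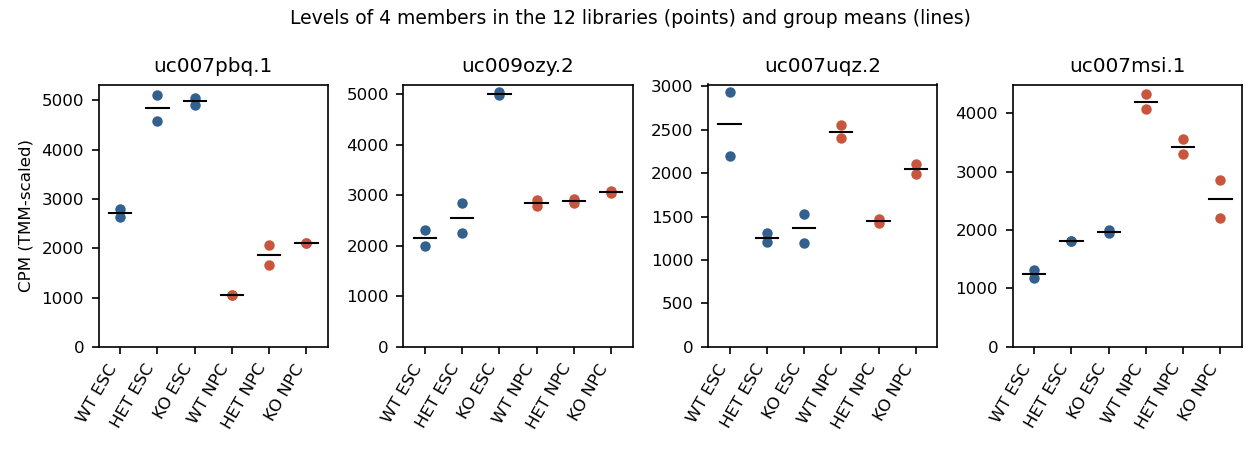
Points are single libraries and lines group means of CPM after TMM scaling (vertical axes, from 0) for uc007pbq.1, uc009ozy.2, uc007uqz.2 and uc007msi.1 in the 6 groups (horizontal axes). The WT points of uc007pbq.1 lie below the HET and KO points in each cell type, and the KO ESC points of uc009ozy.2, 4971 and 5035, lie above all its other points.

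The effect of genotype was also compared between the cell types with interaction terms. With edgeR 0 member features passed for HET and 0 for KO, against 0.00333% of all tested transcripts in each, with 3 and 10 at unadjusted p under 0.05 (5.22% and 9.16% of all tested). DESeq2 called 1 and 7 (0.879% and 3.35% of all tested). The lowest p was that of uc007msi.1 for KO, at a log2 difference of -1.40 ± 0.19 (adjusted p = 0.134, edgeR). Its KO against WT differences were 0.67 in ESC and -0.73 in NPC, and neither was called (adjusted p = 0.0651 and 0.08, edgeR). The 100 row neighbours of uc007msi.1 had KO against WT medians of 0.49 in ESC and 0.18 in NPC. The KO against WT differences had the same sign in both cell types for 31 of the 49 features, 63.3%. The share was 63.8% of tested transcripts with a mean of at least 10 CPM and 57.2% of all tested. Separation of KO from WT in both cell types was found for 9 higher and 5 lower features, 18.4% and 10.2%, against 8.17% and 8.27% of all tested. Many of all tested transcripts had far lower counts, and separation was not counted among transcripts of similar level, so these shares are not matched.

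The members' share moved the scale of all other transcripts. Counts outside the members ran from 5882978 to 10060691 per library. Leaving the members out of the library totals shifted the NPC against ESC log2 fold change of every remaining transcript by the same amount, -0.27 over the genotypes. Within WT it was -0.24, within HET -0.23 and within KO -0.33. Leaving out uc009vew.1 alone gave -0.17, the first 10 gave -0.24 and the first 100 gave -0.28. TMM scaling gave -0.31 over the genotypes, with -0.26 within WT, -0.30 within HET and -0.36 within KO. TMM computed without the members gave -0.30 over the genotypes, so the TMM shift hardly depended on including them.

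TMM factors were 0.780 to 0.985 in ESC and 1.067 to 1.156 in NPC, so every ESC library was scaled one way and every NPC library the other. With total counts, the median log2 fold change of the transcripts that are not members was 0.32 over the genotypes, against 0.02 with TMM. Total counts then called 6870 transcripts higher and 2448 lower in NPC, while TMM called 4641 and 4437. Totals without the members called 4902 higher and 4106 lower. The members themselves gave 11 higher and 20 lower with total counts, against 22.9% and 8.15% of all tested. Another set of library sizes moves members and other transcripts alike, so it leaves the gap between their medians nearly as it was, at -0.53 with TMM. On the TPM scale that gap was -0.33.

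**Figure D5:**
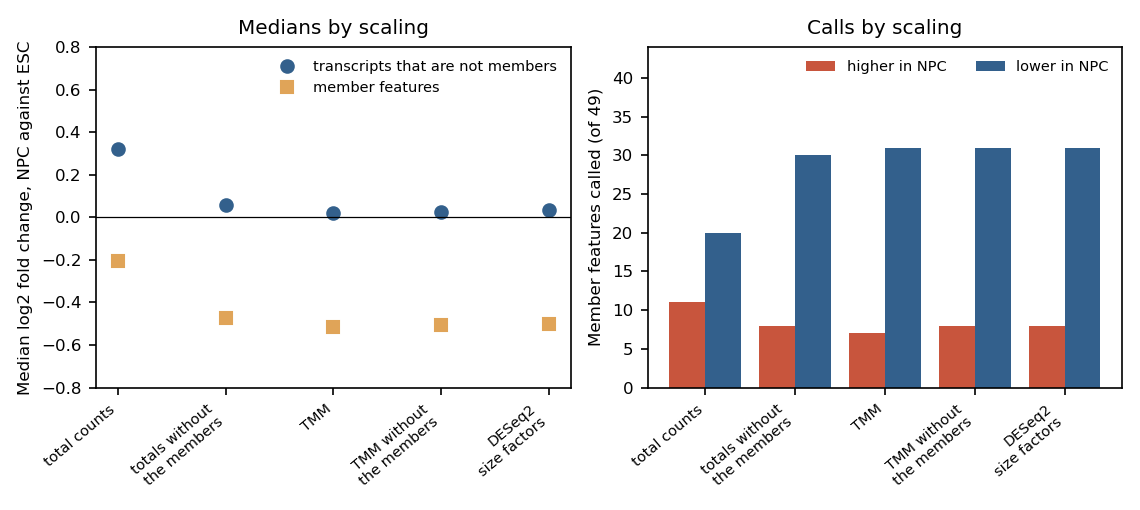
The left panel gives the median log2 fold change of NPC against ESC (vertical axis) for the member features and the other transcripts under 5 scalings (horizontal axis), and the right panel the number of the 49 member features called higher or lower. With total counts the other transcripts have a median of 0.32 and the members 11 higher and 20 lower calls, and with TMM 0.02, 7 and 31.

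Between genotypes the shift was smaller. Leaving the members out raised KO against WT by 0.14 in ESC and 0.04 in NPC, and HET against WT by 0.07 in ESC and 0.08 in NPC. KO against HET shifted by 0.06 in ESC and by -0.04 in NPC. The KO against WT calls in ESC over all tested transcripts were 215 higher and 146 lower with TMM, 55 and 108 with total counts, and 229 and 187 with totals without the members. Most calls were higher with TMM and most were lower with total counts. The members called in this comparison were 3 with TMM and 2 with total counts.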

How the data were processed

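RNA from 12 libraries was quantified by the authors with kallisto (version not given in the sources used here) after cutadapt 1.16, with build mm9, per the submitters' processing notes. The deposited files give estimated counts (expected counts), TPM and lengths per transcript, per the file headers. Here 552 transcripts with equal lengths and equal counts (to 2 decimals) were merged into 217 features. Counts were rounded and tested with edgeR 4.0.16 (R 4.3.3; TMM, filterByExpr with a minimum count of 10, robust quasi-likelihood, a mean for each of 6 groups, all libraries; common biological coefficient of variation 0.592). DESeq2 1.42.0, limma 3.58.1 on log2(TPM + 1), other scalings and filters, a replicate block, single cell types and left-out libraries were alternatives. Only the edgeR steps for NPC against ESC over the genotypes were run on simulated counts with known changes.

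Named transcripts are the first 10, ranks 50 and 51, at most 2 rises and 2 falls per comparison (adjusted p under 0.05, groups not overlapping), and the extremes of spread and length. The remaining names were chosen after their values were seen. The members and lists were chosen with earlier results of these data known.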

Additional observations from a re-analysis of the deposited data

How the results depend on the processing

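Of the 28 named results, 9 lost their call with limma on log2(TPM + 1), 6 with total counts and 4 with the replicate block. Calls were also lost when single libraries were left out. Most of these results were named for a large difference, and their direction alone held in 616 of 620 refits. The exceptions were all uc008cqz.1, not called in NPC against ESC: 0.237 with total counts, 0.422 with limma, 0.0595 without the first WT ESC library and 0.00379 without the first HET ESC library (-0.179 to 0.0595 over left-out libraries). Counts of members called moved as follows. In NPC against ESC, limma gave 11 in WT, 9 in HET and 22 over the genotypes, with more rises than falls in each (9 and 2, 8 and 1, 14 and 8) and in KO (10 and 4), where TMM gave more falls. Total counts gave 6 rises and 5 falls in HET. DESeq2 gave 29 in HET and 27 in KO. In KO against WT in ESC, the mean CPM filter of 10 gave 6, the replicate block 1, ESC alone 0 and DESeq2 12. In KO against WT in NPC, total counts gave 0, the mean CPM filter 2, the replicate block 0, NPC alone 0 and DESeq2 7. In HET against WT and KO against HET in ESC, the mean CPM filter gave 1 each and DESeq2 5 and 4. In HET against WT and KO against HET in NPC, DESeq2 gave 2 and 3, and for the HET and KO interactions 1 and 7. Leaving out 1 library gave 7 to 26 in WT, 4 to 17 in HET, 4 to 18 in KO, 33 to 37 over the genotypes, 0 to 2 for KO against WT in ESC and 0 to 0 in the other genotype comparisons and interactions. The cause was not tested.

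Some members were also left out of both the sum and the library totals. On these reduced totals the mean share in ESC was 21.1% without the first member. It was 12.03% without the 9 members on neighbouring rows (chosen after seeing the data). In percent of all counts, the members that stayed held 16.4% and 8.39%. When 1 library was left out, the share of all 50 members was 36.9% to 39.2%. In NPC the mean share was 23.0% ranked by TPM and 30.1% of TPM. On the reduced totals it was 15.6% without the first member and 10.2% without the 9, against 13.6% and 8.37% of all counts. When 1 library was left out, the share of all 50 members was 24.9% to 26.6%. The scaling shift was -0.17 with only the first member left out of the totals and -0.31 to -0.225 when 1 library was left out. A filter on the remaining transcripts could not change it, since the shift is the same for each.

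The labels do not say if replicate numbers pair the libraries. Of 15 pairs of groups, the replicate differences correlated above 0.1 in 3 and below -0.1 in 1 (range -0.20 to 0.19). Such weak correlations cannot settle how the libraries were prepared. With the replicate block 35 members were called in NPC against ESC over the genotypes, 23 in WT, 14 in HET and 16 in KO.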
